A study of Oryza sativa Indica Group with 2 samples.

Results

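Brassinosteroids are the steroid hormones of plants. In rice they promote the elongation of stems and leaf sheaths, set the angle of the leaf blade and act on panicle architecture and grain size, and mutants that cannot make or sense them are dwarf with erect leaves. The hormone is made from plant sterols by a reductase and a chain of cytochrome P450 enzymes. At the cell surface it binds the receptor kinase BRI1, which works together with the co-receptor BAK1. Without hormone, the GSK3/SHAGGY-like kinase GSK2 phosphorylates and holds back the transcription factor BZR1 and the GRAS protein DLT. With hormone, GSK2 is inactivated and both become active, and BZR1 in turn lowers the transcription of synthesis genes.

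The 10 genes described here are 5 synthesis genes (*D11*, *D2*, *BRD1*, *BRD2* and *DWARF4*) and 5 signalling genes (*BRI1*, *BAK1*, *GSK2*, *BZR1* and *DLT*), out of 55337 loci in the expression table. They were chosen by locus identifier, all 10 are in the table, and all 10 had a value above 0 in both libraries. The table itself holds no gene names, so the symbols rest on the pairing of locus and symbol that defined the gene set. They lie on 8 chromosomes as read from the locus identifiers, with *D2* (LOC_Os01g10040) and *BRI1* (LOC_Os01g52050) on chromosome 1, *BRD1* (LOC_Os03g40540) and *DWARF4* (LOC_Os03g12660) on chromosome 3, and *D11* (LOC_Os04g39430), *GSK2* (LOC_Os05g11730), *DLT* (LOC_Os06g03710), *BZR1* (LOC_Os07g39220), *BAK1* (LOC_Os08g07760) and *BRD2* (LOC_Os10g25780) on chromosomes 4, 5, 6, 7, 8 and 10.

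Spikelets with meiocytes in prophase I were taken from young panicles, and their poly(A) RNA was sequenced from *Osam1* mutant plants and from wild-type plants of the *indica* variety Zhongxian 3037, the parent of the mutant. *Osam1* arose by gamma irradiation and carries a small frameshift deletion in *OsAM1*, whose loss arrests pollen mother cells in leptotene. Each genotype has 1 library, made from spikelets of several panicles, and spikelets contain many somatic cells beside the meiocytes. The values are FPKM, fragments corrected for transcript length and for the total number of mapped fragments, and 1 value per locus was made by adding its transcript models. Because there is no replicate library, no value has an error and no difference has a p-value. In a bulk sample, fewer cells of a type cannot be told apart from less RNA per cell.

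The labels of the libraries need care. The submitters' labels assign the column headed with a capital AA to *Osam1* and the column headed with a small aa to the wild type. The directions that the study gives for the loci of its gene lists with a single transcript model are those of the opposite assignment. The locus of *OsAM1* is taken here from general knowledge as LOC_Os03g44760, since neither the table nor the labels pair it with a locus. It had 3.76 FPKM in the *Osam1*-labelled library and 15.1 FPKM in the WT-labelled library, over 5 transcript models. Models 3, 4 and 5 each had 0.63 FPKM in the *Osam1*-labelled library and 5.04 FPKM in the WT-labelled library. Model 2 went the other way, with 1.87 FPKM in the *Osam1*-labelled library and 0 in the WT-labelled library. A frameshift need not remove a transcript, so these values of *OsAM1* do not settle the labels. The libraries are therefore called the *Osam1*-labelled and the WT-labelled (wild-type) library, after the submitters' labels, and every direction below turns round if the labels are exchanged.

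The summed FPKM was 1376088 in the *Osam1*-labelled library and 1142813 in the WT-labelled library. The study states the total reads of each library, but the reads per gene are not in the table, so the number of reads behind a single value is unknown. Among 3711 loci with 1 transcript model and a low level, the most frequent ratio between the libraries was 2.37. If this step is 1 read against 1 read, the WT-labelled library was 2.37 times as deep. The read totals that the study states by genotype have the opposite order, with more reads for *Osam1*. They also differ by a smaller factor, so neither assignment of the labels gives 2.37. The difference was not resolved here. All 9 loci listed as spikelet and meiocyte markers were above 0 in both libraries, and summed to 890.6 FPKM in the *Osam1*-labelled library and 665.7 FPKM in the WT-labelled library. Of these 9 loci, 7 were higher in the *Osam1*-labelled library, 1 of them at least 2-fold, and 2 were lower by less than 2-fold. The largest, *OsMADS16*, had 358.3 FPKM on model 1 alone in the *Osam1*-labelled library. In the WT-labelled library it had the same 154.1 FPKM on each of 2 models. The models of *PAIR2* had log2 ratios of 1.20 and -0.50. These sums and counts therefore depend on the adding of models. *MEL1*, a germ cell Argonaute, had 22.1 FPKM in the *Osam1*-labelled library and 19.6 FPKM in the WT-labelled library. The 5 loci listed as green leaf markers were also above 0 in both and ranged between 12.4 and 158.2 FPKM in the *Osam1*-labelled library and between 3.91 and 99.8 FPKM in the WT-labelled library. They summed to 300.8 FPKM in the *Osam1*-labelled library and 170.9 FPKM in the WT-labelled library. All 5 were higher in the *Osam1*-labelled library, 2 of them at least 2-fold. In 1 of these 2, LOC_Os12g19470, the higher sum came from transcript model 2 alone. That model had 43.1 FPKM in the *Osam1*-labelled library and was listed at 0 in the WT-labelled library. Model 1 of this locus was lower, with 2.91 FPKM in the *Osam1*-labelled library and 3.91 FPKM in the WT-labelled library. Beside these counts, 20.6% of all loci whose mean reached 1 FPKM were at least 2-fold higher in the *Osam1*-labelled library. Whether the libraries differ in their tissues, and what part this has in the results on brassinosteroid genes, was not tested.

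Over the 10 genes together, the summed level hardly differed between the libraries, whereas single genes went either way. The 10 values summed to 387.2 FPKM in the *Osam1*-labelled library and 390.0 FPKM in the WT-labelled library. This near equality depends on *BRD2*, whose transcript models did not move together. Without *BRD2* the sums were 211.7 FPKM in the *Osam1*-labelled library and 258.6 FPKM in the WT-labelled library. A gene was counted as changed when log2((FPKM + 1) *Osam1*-labelled / (FPKM + 1) WT-labelled) was at least 1 in absolute value, which corresponds to 2-fold. By this criterion *D11* and *GSK2* were higher and *D2* and *BRD1* were lower in the *Osam1*-labelled library, 4 of 10 genes in all. The same criterion was met by 20.8% of all 55337 loci, and by 44.5% of the 21837 loci whose mean reached 1 FPKM, a level that all 10 genes reach. The share of changed genes was thus near that of the expressed loci.

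**Figure D1:**
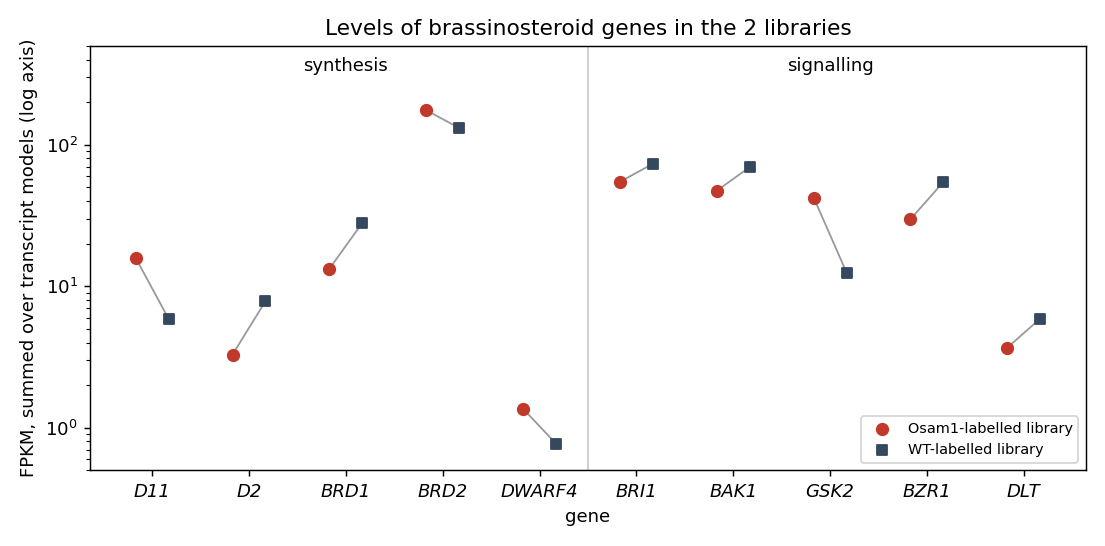
Summed FPKM (log axis) of each gene in the *Osam1*-labelled library (red circles) and in the WT-labelled library (dark squares), 1 library each, so that no error bars can be drawn. *BRD2* is highest and *DWARF4* lowest in both libraries, and *D11* and *GSK2* are the genes whose red circle lies farthest above the dark square.

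The synthesis genes spanned a wide range of levels. FPKM is scaled by transcript length, so the levels of different genes can be set beside each other. *DWARF4*, a P450 enzyme that hydroxylates the side chain early in the pathway, had the lowest level of the 10 genes, with 1.36 FPKM in the *Osam1*-labelled library and 0.77 FPKM in the WT-labelled library. Its log2 ratio of 0.42 is within 2-fold, and 77.3% of all loci with a mean from 1 to below 3 FPKM passed 2-fold, so ratios at this level vary widely.

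*D11*, a P450 enzyme of another subfamily that acts on the same early steps, had a level of 15.9 FPKM in the *Osam1*-labelled library and 5.88 FPKM in the WT-labelled library. Its log2 ratio of 1.29 was the highest among the synthesis genes. Of the 5936 loci with a mean from 10 to below 30 FPKM, 36.4% passed 2-fold and 11.2% had a log2 ratio at or above that of *D11*. In the *Osam1*-labelled library, the level of *D11* was 11.7 times that of *DWARF4*, and in the WT-labelled library it was 7.64 times.

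*D2* and *BRD1*, which act on later steps, had lower sums in the *Osam1*-labelled library. *D2*, a P450 enzyme that oxidizes the intermediates, had 3.29 FPKM in the *Osam1*-labelled library and 7.84 FPKM in the WT-labelled library, a log2 ratio of -1.04. *BRD1*, the oxidase that makes castasterone, the main active brassinosteroid of rice, had 13.3 FPKM in the *Osam1*-labelled library and 28.0 FPKM in the WT-labelled library, a log2 ratio of -1.02. Both ratios lie just past the criterion. After scaling by the 75th percentile of each library the ratio of *BRD1* fell just short of it, which left 3 of 10 genes changed. The level of *BRD1* was 0.84 times that of *D11* in the *Osam1*-labelled library and 4.77 times in the WT-labelled library, so the order of these enzymes differed between the libraries.

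*BRD2*, a sterol reductase homologous to *Arabidopsis* DWF1 that supplies the sterol precursors, was the most abundant of the 10 genes. It had 175.5 FPKM in the *Osam1*-labelled library and 131.4 FPKM in the WT-labelled library, a log2 ratio of 0.41. It thereby made up 83.9% of the summed level of the synthesis genes in the *Osam1*-labelled library and 75.5% in the WT-labelled library. Statements on the summed synthesis genes are for the most part statements on *BRD2*.

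The sum over *BRD2* hides 3 transcript models that did not move together. Transcript model 1 had 53.5 FPKM in the *Osam1*-labelled library and was listed at 0 in the WT-labelled library. Transcript model 2 had 61.0 FPKM in the *Osam1*-labelled library and 131.2 FPKM in the WT-labelled library. Transcript model 3 had 61.0 FPKM in the *Osam1*-labelled library, exactly the value of model 2, and 0.15 FPKM in the WT-labelled library. In the WT-labelled library nearly all of the signal was thus on 1 model, while in the *Osam1*-labelled library it was spread over all 3. With the most abundant model alone the log2 ratio of *BRD2* was -1.09, and with the first listed model alone it was 5.77, so the direction for this gene depends on which model is read.

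*D2* has the same feature. Its transcript model 1 had 3.29 FPKM in the *Osam1*-labelled library and 2.45 FPKM in the WT-labelled library, a log2 ratio of 0.31. Transcript model 2 was listed at 0 in the *Osam1*-labelled library and had 5.39 FPKM in the WT-labelled library. The lower sum of *D2* in the *Osam1*-labelled library therefore came from transcript model 2 alone, and with the mean over both models the log2 ratio was -0.90, short of the criterion. *D11* also has 2 models, but its model 2 was listed at 0 in both libraries.

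Such behaviour was common in the table. Of the 5689 loci with several transcript models whose mean reached 1 FPKM, 20.8% had models past 2-fold in both directions. Equal values above 0 in several models, as for models 2 and 3 of *BRD2*, were found in 23.8% of these loci in the *Osam1*-labelled library and 29.0% in the WT-labelled library. Where models share reads, a sum over models can count a read more than once. The other 7 genes have 1 transcript model each and are not affected.

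**Figure D2:**
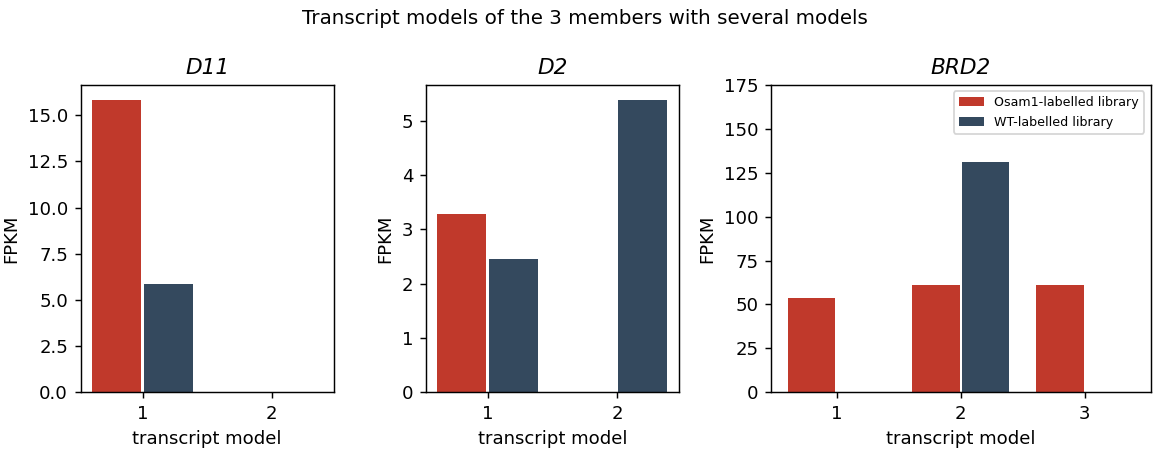
FPKM of each transcript model of *D11*, *D2* and *BRD2* in the *Osam1*-labelled library (red) and in the WT-labelled library (dark), 1 library each, on axes that start at 0. Model 2 of *D2* has signal in the WT-labelled library alone (5.39 FPKM), and *BRD2* has 3 models of similar height in the *Osam1*-labelled library against 1 tall model (131.2 FPKM) in the WT-labelled library.

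Of the signalling genes, 4 were lower in the *Osam1*-labelled library by less than 2-fold and 1 was higher. *BRI1*, the receptor kinase, had 54.8 FPKM in the *Osam1*-labelled library and 73.4 FPKM in the WT-labelled library, a log2 ratio of -0.42. *BAK1*, its co-receptor, had 47.3 FPKM in the *Osam1*-labelled library and 69.6 FPKM in the WT-labelled library, a log2 ratio of -0.55. The receptor and the co-receptor had nearly the same level within each library, with *BRI1* at 1.16 times *BAK1* in the *Osam1*-labelled library and at 1.05 times in the WT-labelled library.

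Downstream of the receptors, *BZR1*, the transcription factor that carries the signal to its target genes, had 29.8 FPKM in the *Osam1*-labelled library and 54.7 FPKM in the WT-labelled library. Its log2 ratio of -0.86 was the lowest among the signalling genes. *DLT*, the GRAS protein that acts as a positive component and is a substrate of GSK2, had the lowest level of the signalling genes in both libraries, with 3.68 FPKM in the *Osam1*-labelled library and 5.91 FPKM in the WT-labelled library, a log2 ratio of -0.56. None of these 4 ratios is unusual for its level. For *BZR1*, 17.1% of the 5023 loci with a mean from 30 to below 100 FPKM had a ratio as low or lower, and for *BRI1* and *BAK1* these shares were 28.7% and 24.1%.

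*GSK2*, the kinase that holds the pathway back, was the exception among the signalling genes. It had 42.4 FPKM in the *Osam1*-labelled library and 12.5 FPKM in the WT-labelled library, a ratio of 3.39 and a log2 ratio of 1.69, the highest of the 10 genes. Of the 5936 loci with a mean from 10 to below 30 FPKM, 6.59% had a log2 ratio at or above that of *GSK2*. As *GSK2* is the highest of 10 genes, this share does not measure how rare such a ratio is. Its level was 0.77 times that of *BRI1* in the *Osam1*-labelled library and 0.17 times in the WT-labelled library. Set against *BZR1*, one of its substrates, it was 1.42 times as high in the *Osam1*-labelled library and 0.23 times as high in the WT-labelled library. In the *Osam1*-labelled library the kinase thus stood above its substrate, and in the WT-labelled library below it, at the level of RNA. Across the scalings and added values tried, the log2 ratio of *GSK2* lay between 1.62 and 1.76.

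**Figure D3:**
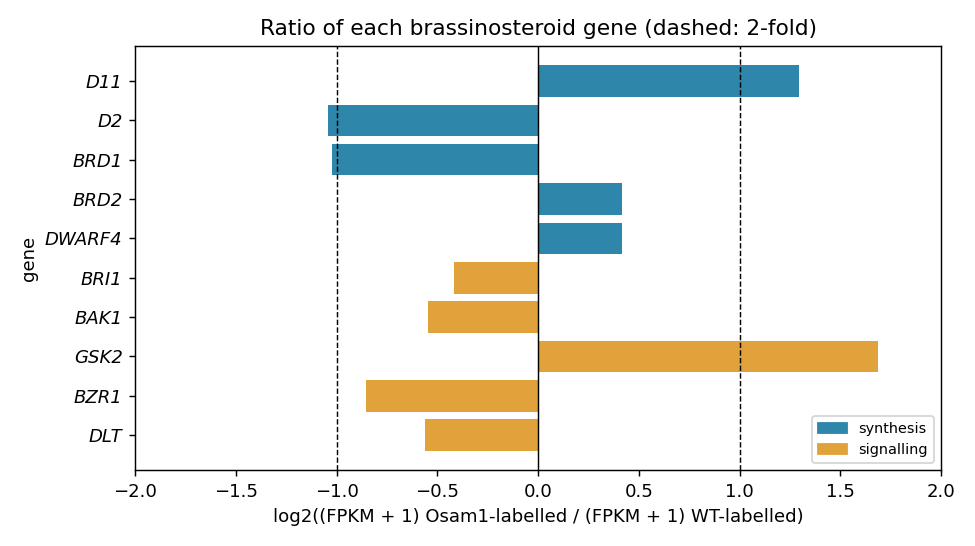
The log2 ratio of the *Osam1*-labelled library over the WT-labelled library, with 1 FPKM added to each value, for the 5 synthesis genes (blue) and the 5 signalling genes (orange), with dashed lines at 2-fold and no error bars because each genotype has 1 library. *D11* (1.29) and *GSK2* (1.69) pass the right line, *D2* (-1.04) and *BRD1* (-1.02) just pass the left line, and the other 4 signalling genes lie between -0.86 and -0.42.

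Synthesis and signalling were then compared as groups. The median log2 ratio was 0.41 for the synthesis genes and -0.55 for the signalling genes, a difference of 0.96, beside a median of 0.03 for all loci whose mean reached 1 FPKM. The 2 groups overlapped, with the synthesis genes between -1.04 and 1.29 and the signalling genes between -0.86 and 1.69. The median of the synthesis genes is that of *BRD2*, with *DWARF4* next to it at nearly the same ratio. Without *BRD2* the median was -0.30 and the difference was 0.24. Leaving out *DWARF4* or *D11* instead would give nearly the same values, so this shift is not particular to *BRD2*. By the criterion of 2-fold, 3 of 5 synthesis genes and 1 of 5 signalling genes were changed, beside 44.5% of all loci whose mean reached 1 FPKM. The background falls with the level, to 24.9% of the loci with a mean from 30 to below 100 FPKM, where *BRI1*, *BAK1* and *BZR1* lie, so the 2 counts are not compared with each other.

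In levels, the synthesis genes summed to 209.3 FPKM in the *Osam1*-labelled library and 173.9 FPKM in the WT-labelled library, and the signalling genes to 177.9 FPKM in the *Osam1*-labelled library and 216.1 FPKM in the WT-labelled library. The synthesis share of the 10 genes was accordingly 54.1% in the *Osam1*-labelled library and 44.6% in the WT-labelled library. With the most abundant transcript model in place of the sum it was 34.8% in the *Osam1*-labelled library and 43.8% in the WT-labelled library, which turns the direction round. In the sums, *BRD2* was higher in the *Osam1*-labelled library while the signalling genes together were lower, and both contribute to the shift. Without *BRD2* the synthesis share was 16.0% in the *Osam1*-labelled library and 16.4% in the WT-labelled library. The P450 enzymes of synthesis, *D11*, *D2*, *BRD1* and *DWARF4*, summed to 33.8 FPKM in the *Osam1*-labelled library and 42.5 FPKM in the WT-labelled library, well below the signalling genes in both.

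The order of the 10 genes by level was similar in both libraries, with a Spearman's rho of 0.87 over 10 genes, given as a description. *BRD2*, *BRI1* and *BAK1* took the first 3 places, *DLT* the eighth and *DWARF4* the last in both. *D11* moved most, to place 6 in the *Osam1*-labelled library against place 9 in the WT-labelled library. The highest level was 129.1 times the lowest in the *Osam1*-labelled library and 170.6 times in the WT-labelled library. In the *Osam1*-labelled library this span rests on the sum for *BRD2*, whose models 2 and 3 each had 61.0 FPKM. If these models share reads, the level of *BRD2* and the span are overstated there. Among all loci above 0, *BRD2* was at or above 95.6% in the *Osam1*-labelled library and 93.7% in the WT-labelled library, and *DWARF4* at or above 12.6% in the *Osam1*-labelled library and 10.6% in the WT-labelled library.

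A further 28 loci were listed as other genes of the pathway, 8 of synthesis and inactivation and 20 of signalling. Their roles come from general knowledge of rice, since the table does not annotate them, and they are named here by locus. In this list 10 of 28 loci passed 2-fold, 3 of them higher and 7 lower in the *Osam1*-labelled library, and 4 were listed at 0 in both libraries. Of all loci, 9.57% were 2-fold higher and 11.2% were 2-fold lower, and of the loci whose mean reached 1 FPKM 20.6% and 23.9% were. Of the 10 changed loci in the list, 9 had a mean of at least 1 FPKM. The 28 also include loci below that level, so the shares of loci whose mean reached 1 FPKM are not for a like set. With an added value of 0.1 FPKM in place of 1 FPKM the number of changed loci in the list was 13, while the share over all loci was 28.4%.

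The relatives of *GSK2* did not all share its ratio. LOC_Os02g14130 had 86.2 FPKM in the *Osam1*-labelled library and 35.9 FPKM in the WT-labelled library, a log2 ratio of 1.24. This too lies above the 90th percentile of its class, 1.01 for loci with a mean from 30 to below 100 FPKM. LOC_Os01g10840 had 73.3 FPKM in the *Osam1*-labelled library and 69.7 FPKM in the WT-labelled library, and LOC_Os06g35530 had 41.7 FPKM in the *Osam1*-labelled library and 47.4 FPKM in the WT-labelled library, both within 2-fold. Over these 4 kinase loci, *GSK2* took 17.4% of the summed level in the *Osam1*-labelled library and 7.55% in the WT-labelled library. It had 1 of the 4 loci just below it in the *Osam1*-labelled library and was the lowest in the WT-labelled library.

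Among the relatives of *BZR1*, the most abundant was lower in the *Osam1*-labelled library, as *BZR1* was. LOC_Os01g10610 had 100.5 FPKM in the *Osam1*-labelled library and 248.0 FPKM in the WT-labelled library, a log2 ratio of -1.29. LOC_Os06g35900 had 19.3 FPKM in the *Osam1*-labelled library and 37.3 FPKM in the WT-labelled library, a log2 ratio of -0.92. LOC_Os02g13900 went the other way, with 9.36 FPKM in the *Osam1*-labelled library and 3.42 FPKM in the WT-labelled library, a log2 ratio of 1.23. Together with *BZR1*, the 4 loci summed to 158.9 FPKM in the *Osam1*-labelled library and 343.4 FPKM in the WT-labelled library.

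The listed relatives of the receptor *BRI1* had far lower levels than *BRI1* itself. LOC_Os09g12240 had 0.91 FPKM in the *Osam1*-labelled library and 1.08 FPKM in the WT-labelled library, and LOC_Os08g25380 had 0.18 FPKM in the *Osam1*-labelled library and 1.39 FPKM in the WT-labelled library. The relative of *BAK1*, LOC_Os04g38480, had 17.36 FPKM in the *Osam1*-labelled library and 23.04 FPKM in the WT-labelled library, a log2 ratio of -0.39. LOC_Os05g11130, the close relative of *D2*, was listed at 0 in both libraries.

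The 4 loci listed as inactivating enzymes, P450 enzymes that oxidize active brassinosteroids, summed to 5.78 FPKM in the *Osam1*-labelled library and 28.8 FPKM in the WT-labelled library. LOC_Os06g39880 had 2.55 FPKM in the *Osam1*-labelled library and 20.3 FPKM in the WT-labelled library, a log2 ratio of -2.58. LOC_Os01g29150 had 0.77 FPKM in the *Osam1*-labelled library and 7.51 FPKM in the WT-labelled library, a log2 ratio of -2.27. The third, LOC_Os02g11020, had 2.46 FPKM in the *Osam1*-labelled library and 1.04 FPKM in the WT-labelled library, and LOC_Os07g45290 was listed at 0 in both. At a mean from 3 to below 10 FPKM, the class of LOC_Os01g29150, 57.5% of all loci passed 2-fold, and the 10th percentile of the log2 ratio was -3.23. At a mean from 10 to below 30 FPKM, the class of LOC_Os06g39880, 36.4% passed 2-fold and the 10th percentile was -1.68. The ratio of LOC_Os06g39880 thus lies below the 10th percentile of its class, and that of LOC_Os01g29150 does not.

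Of the other synthesis enzymes, LOC_Os11g04710 and LOC_Os12g04480 lie on chromosome arms 11 and 12 that share a recent duplication, and reads of near-identical copies could have been split between them. The first had 3.58 FPKM in the *Osam1*-labelled library and 13.1 FPKM in the WT-labelled library, a log2 ratio of -1.62. The second had 59.8 FPKM in the *Osam1*-labelled library and 33.6 FPKM in the WT-labelled library, a log2 ratio of 0.81. Their sum was 63.3 FPKM in the *Osam1*-labelled library and 46.7 FPKM in the WT-labelled library. How reads that match both copies were counted is not known here, so the sum may be affected as well.

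The remaining changed loci of the list whose mean reached 1 FPKM belong to signalling. LOC_Os04g58750 had 4 transcript models with 20.1 FPKM each in the *Osam1*-labelled library and 8.12 FPKM each in the WT-labelled library, a log2 ratio of 1.28 for the sum. LOC_Os04g49230 had 4.53 FPKM in the *Osam1*-labelled library and 11.8 FPKM in the WT-labelled library, a log2 ratio of -1.21. LOC_Os04g56500 was listed at 0 in the *Osam1*-labelled library and had 8.45 FPKM in the WT-labelled library.

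**Figure D4:**
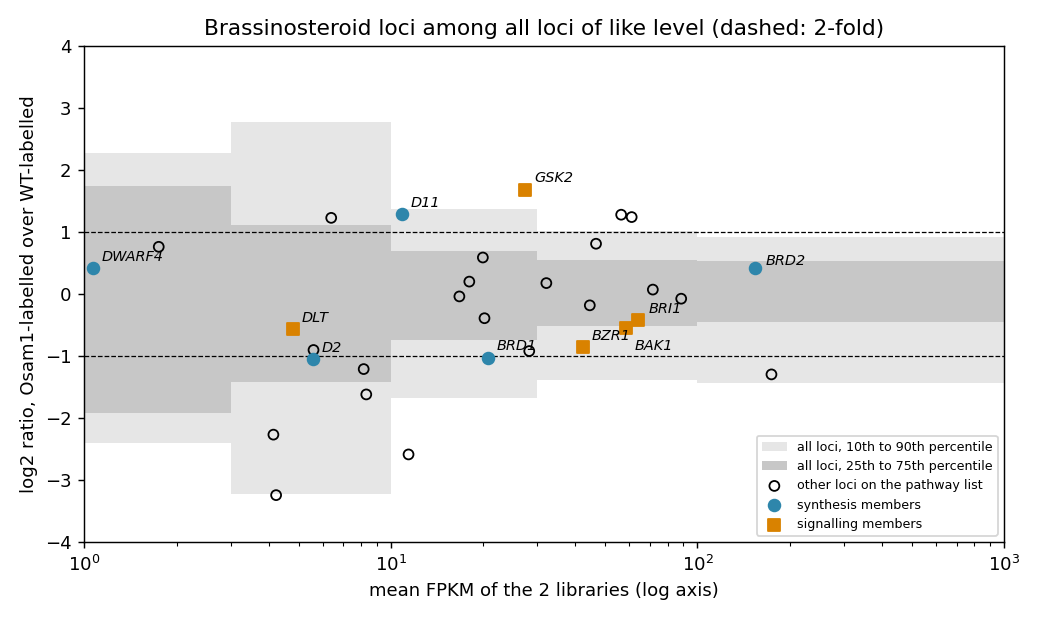
Log2 ratio of the *Osam1*-labelled library over the WT-labelled library against the mean FPKM of the 2 libraries (log axis) for the synthesis genes (blue circles), the signalling genes (orange squares) and the other loci on the pathway list whose mean reached 1 FPKM (open circles), over grey bands that hold the middle of all loci in each class of level. *GSK2* (1.69) lies above the band from the 10th to the 90th percentile of its class, whose upper edge is 1.37, while *D11* and the other 8 genes lie within theirs. Some of the open circles also lie outside the bands.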

How the data were processed

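Reads cleaned of adaptors and low-quality sequence were aligned by the authors to the genome of the Rice Genome Annotation Project (SOAPaligner/soap2), and ERANGE gave the expression values. The library kit did not keep strand, so reads of overlapping antisense genes cannot be told apart. The deposited table gives FPKM with 2 decimals for each transcript model, whereas the methods of the study name RPKM. The table has 65535 rows from 55337 loci and ends at locus number 37610 of chromosome 12, and later loci were not analysed here.

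FPKM was added over the models of each locus. The ratio was log2((FPKM + 1) *Osam1*-labelled / (FPKM + 1) WT-labelled), and an absolute value of at least 1 counted as changed. With 1 library per genotype there was no test. Alternatives were added values of 0.1 and 0.01 FPKM, 3 scalings (75th percentile, median ratio, equal sums without the most abundant locus), the first listed or most abundant transcript model, and filters on low values. A mean over transcript models, and leaving out *BRD2* or *GSK2*, were added after the values were seen. The genes and lists were chosen with earlier results of these data known. The text names all 10 genes, their close relatives, and the other listed loci past 2-fold with a mean of at least 1 FPKM. The calls were checked on simulated data. Changes well beyond 2-fold were planted there, in loci more abundant than *D11*, *D2*, *BRD1* and *GSK2*. That check does not cover calls at the level of these genes, or ratios close to the criterion. Protein and promoter sequences were not used here. Python 3.11.15, numpy 2.4.6, pandas 2.3.3, scipy 1.17.1 and matplotlib 3.10.9 were used.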

Additional observations from a re-analysis of the deposited data

How the results depend on the processing

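The ratios of the 7 genes with 1 transcript model kept their direction under each alternative run. For these genes the choice of model and the filters leave the value unchanged, and an added value cannot turn a ratio round. The 3 scalings had factors between 0.98 and 1.05, too small to turn these ratios round, so the kept direction is no check. *D2* reversed to a log2 ratio of 0.31 with the first listed and with the most abundant transcript model. The synthesis share of the 10 genes in the *Osam1*-labelled library was 32.9% with the first listed model, 34.8% with the most abundant model, 31.7% with the mean over models and 16.0% without *BRD2*. In the WT-labelled library it was 14.7% with the first listed model, 26.9% with the mean over models and 16.4% without *BRD2*. With the most abundant model it was 43.8% in the WT-labelled library, so that the synthesis share was then lower in the *Osam1*-labelled library. Without *BRD2* the median log2 ratio of the synthesis genes was -0.30 and its difference from signalling 0.24. Leaving out any 1 of the 3 synthesis genes with a ratio above 0 moves the median in this way. Without *GSK2*, 0 of the signalling genes passed 2-fold. No paired analysis was possible because each genotype has 1 library. Since the table holds no reads per gene, ratios of genes near 1 FPKM, such as *DWARF4*, rest on an unknown number of reads.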
